A study of Mus musculus with 37 samples.

Results

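The genes of the mitogen-activated protein (MAP) kinase cascade, together with the dual-specificity phosphatases that switch it off and the AP-1 and related basic leucine zipper factors at its end, were followed through resting, IL-10-treated and LPS-treated mouse myeloid cells. Members were taken by gene name: names beginning with Map2k, Map3k, Map4k, Mapk, Jun, Fos, Batf or Creb, names made of Dusp, Atf or Egr and a number, and Maff, Mafg and Mafk, without Map3k8. A gene was kept when its transcripts summed to at least 10 in any group. This gave 40 genes, represented by 125 transcripts, of the 6509 genes and 16993 transcripts in the table used. The minimum removed none of the 40 names that matched and could not, since every transcript held reached at least 13 in some group. The 40 were 1 MAP4K, 6 MAP3Ks, 7 MAP kinases, 2 scaffolds, 3 kinases downstream of MAP kinases, 4 MAP kinase phosphatases, 1 other dual-specificity phosphatase, 3 Jun and Fos genes, 11 genes of the Batf, Atf and Creb kind and 2 small Mafs. The copy of the table used here ends in a broken line and holds a part of the transcriptome, so every count and rank below is over the members it holds. Jun, Mapk8, Dusp1 and the Map2k and Egr genes were not analysed here.

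In a MAP kinase cascade a MAP3K activates a MAP2K, which activates an ERK, JNK or p38 kinase, and the active kinase phosphorylates transcription factors and further kinases. Toll-like receptors, including the LPS receptor, open all of these branches in myeloid cells, and the AP-1 dimers of Jun and Fos proteins are among their nuclear endpoints. MAP kinase phosphatases of the Dusp family remove the activating phosphates and are themselves made in response to signalling, which gives the cascade a brake.

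The study sequenced RNA of 5 cell types of C57Bl6cJ mice. Macrophages were thioglycollate-elicited and taken from the peritoneum, neutrophils were isolated from bone marrow, dendritic cells from spleen (sDCs), while eosinophils and mast cells had been derived from marrow in culture. Cells were untreated, or received IL-10, LPS, or both in turn, each agent at 100 ng/ml and for 4 h with IL-10 given ahead of LPS, and eosinophils had the untreated and LPS groups only. The labels do not give the time at which untreated cells were harvested. Neutrophils were purified from pooled mice and matured overnight with GM-CSF. Each of the 18 groups had 2 libraries from independent mice, 36 in all, and the deposited value is the mean of the pair on a scale normalized for GC content, so no spread between replicates and no depth can be given for any value. A gene value below is the sum of its transcripts on that scale, a log2 change is a difference of log2(value + 1), and a gene was called higher or lower in a cell type when it differed by at least 2-fold and reached 10 in some group of that cell type. These calls carry no test.

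The labels were checked against marker genes, of which the table held 3 of 9 for macrophages, 7 of 13 for neutrophils, 4 of 11 for dendritic cells, 4 of 11 for mast cells and 3 of 10 for eosinophils. Among untreated groups each summed list was highest in its own cells, from 19734.5 for the dendritic cell list in sDCs to 432827 for the mast cell list in mast cells. The sDC sum was mostly 1 gene, Dpp4, at 15226. Xcr1 (189.5) and Clec9a (243.5) were also highest in untreated sDCs, at low values. With LPS the dendritic cell list summed to 4748.5 in sDCs and 7607 in macrophages. The sDC groups nevertheless held less Itgax (CD11c, 4075.5 untreated) than the macrophages (13861), and they carried Tcf7, a T cell factor and the 1 gene held of 8 on that list, at 14900.5 to 15963 in all 4 groups against at most 194 in any other cell type. In neutrophils the eosinophil list summed to 27197.5 to 30791, with Epx at 18734 to 22781.5. The 4 B cell genes held of 7 summed to 3790.5 to 5975.5 in neutrophils and at most 1880.5 elsewhere, and the 4 erythroid genes of 5 to 3535.5 to 6269 in neutrophils.

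At rest the members were spread over the cell types much as other genes were. The distance between the highest and the lowest cell type had a median of 1.8 on the log2 scale over the 40 members and 2.03 over all 6470 genes, and 12 members (30%) spanned 10-fold or more against 34.6% of all genes. The cell type with most of a gene exceeded the next by at least 2-fold in 13 members (32.5%) and in 30.3% of all genes. Levels of different genes were set side by side only per kb of transcript, which the reference annotation allowed for all 125 transcripts.

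Among the kinases, the ERK gene Mapk3 had the highest resting level per kb of its tier in macrophages (3112), neutrophils (4075), sDCs (1979) and eosinophils (3801). Mast cells were the exception, with Mapk14, the p38 alpha gene, at 1632 per kb and Mapk3 at 1568. Among the MAP3Ks, Map3k3 led in macrophages (378), neutrophils (808), mast cells (576) and eosinophils (578). In sDCs the leading MAP3K was Map3k14, the NF-kB-inducing kinase of the alternative NF-kB route, at 3318 per kb. Of the scaffolds that hold JNK near its activators, Mapk8ip3 was the higher in each cell type, from 326 per kb in macrophages to 1315 in mast cells. Mapkapk2, a p38 target that controls the stability of cytokine mRNA, led its tier in macrophages (1573), neutrophils (2913) and sDCs (1279), and Mapkapk3 led in mast cells (1311) and eosinophils (1768).

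Among the phosphatases, Dusp6, which acts on ERK in the cytoplasm, led in macrophages (533 per kb), neutrophils (1340) and mast cells (577). Dusp5, the nuclear ERK phosphatase, led in sDCs (5378) and eosinophils (351). Atf4, the factor of the integrated stress response, was the highest of the Batf, Atf and Creb genes in every cell type, between 2912 per kb in sDCs and 4183 in eosinophils. Mafg was the higher small Maf in each, between 605 and 1259 per kb. In the Jun and Fos group, Junb led in macrophages (1565) and sDCs (3807) and Jund in neutrophils (1798), mast cells (1851) and eosinophils (1859).

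**Figure D1:**
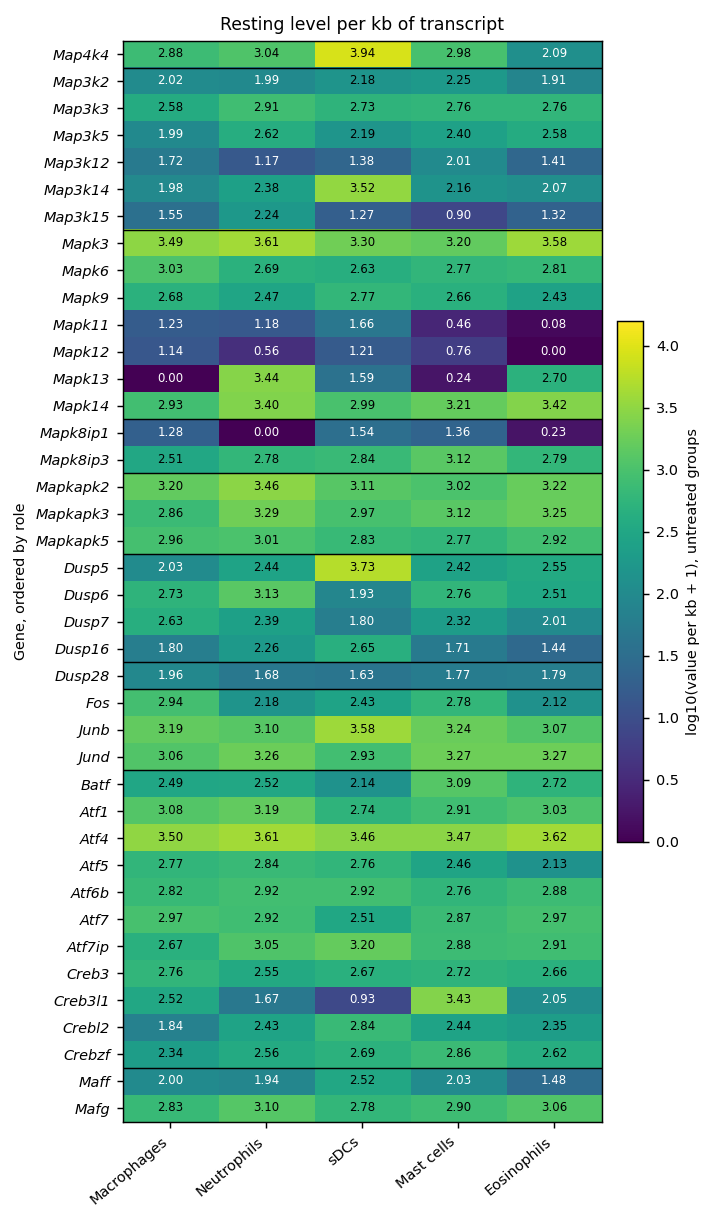
Resting level of the 40 members in the 5 untreated groups, as log10 of the value per kb plus 1, with 1 mean value per group and black lines between roles. Mapk3 and Atf4 are high in every column, and Map4k4, Map3k14 and Dusp5 stand out in sDCs.

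Several members belonged largely to 1 cell type. Mapk13, the p38 delta gene, stood at 3784 in untreated neutrophils and 681 in eosinophils, at 51 in sDCs, 1 in mast cells, and was listed at 0 in macrophages. Neutrophils therefore held 5.55-fold more than eosinophils, the next cell type. Creb3l1, an endoplasmic reticulum factor released by proteolysis, was 6934.5 in mast cells, 868 in macrophages, 291 in eosinophils, 120.5 in neutrophils and 19.5 in sDCs, a 7.98-fold lead for mast cells. Map3k15, an ASK family kinase, was 743 in neutrophils and 30 to 149 elsewhere. Other large differences lay in sDCs. Map4k4, a germinal centre kinase that feeds the JNK branch, was 47098.5 there and 656.5 to 5722 elsewhere, 8.23-fold above the next cell type. Dusp5 was 13300 in sDCs and 263 to 869 elsewhere (15.3-fold above the next). Map3k14 was 12263 in sDCs and 351 to 805 elsewhere (15.2-fold above the next). The part of the T cell signal of these sDC libraries in those levels was not tested.

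LPS was compared with no treatment in all 5 cell types. The untreated groups also gave the resting levels and serve the comparison with IL-10 alone. A high untreated value therefore raises the resting level and lowers both changes. In macrophages 7 of 39 members counted were at least 2-fold higher, where 12.7% of all genes were, and 3 were at least 2-fold lower, where 14.8% were. In neutrophils 8 of 38 were higher (8.71% of all genes) and 6 lower (7.88%). In sDCs 2 of 40 were higher (9.04%) and 6 lower (11.5%). Mast cells had 1 of 38 higher (4.76%) and 2 lower (5.46%), and eosinophils had 1 of 37 higher (2.16%) and 0 lower (0.702%). As shares of the members counted, neutrophils had the most calls, at 21.1% higher and 15.8% lower. The share called higher rested on 2 members in sDCs (5.0%) and 1 in mast cells (2.63%). Centring on the median of all genes made these 3 and 2, so no difference from all genes is read from them.

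The median change with LPS over all genes was -0.15 in macrophages and -0.14 in sDCs on the log2 scale, and within 0.1 of 0 in the other cell types. The members' median was positive in macrophages (0.15) and eosinophils (0.04), and negative in neutrophils (-0.17), mast cells (-0.03) and sDCs (-0.09). Their median size of change, regardless of direction, was smallest in eosinophils, at 0.15 beside 0.10 over all genes, and largest in macrophages, at 0.61 beside 0.53. It was 0.51 for neutrophils (0.35 over all genes), 0.42 for sDCs (0.44) and 0.34 for mast cells (0.24). In bulk samples, fewer cells of a type and less RNA per cell cannot be told apart. Between untreated and LPS groups the summed macrophage markers went from 208927.5 to 117385 in macrophages. The neutrophil markers went from 309239 to 68132.5 in neutrophils and the dendritic cell markers from 19734.5 to 4748.5 in sDCs. Genes of a list did not move alike. In neutrophils Cxcr2 went from 52728 to 3210, but Ly6g from 161.5 to 158.5, Mpo from 22826 to 20675 and Elane from 13402 to 10179. Marco in macrophages (2002 to 5425.5) and Xcr1 in sDCs (189.5 to 201.5) were higher with LPS. Emr1 (F4/80) was 21201 in untreated macrophages and 14338.5 in untreated eosinophils. It went from 4346 to 14667.5 in neutrophils, and Cd68 there from 2788 to 3140. The part of these shifts in the changes below was not tested.

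**Figure D2:**
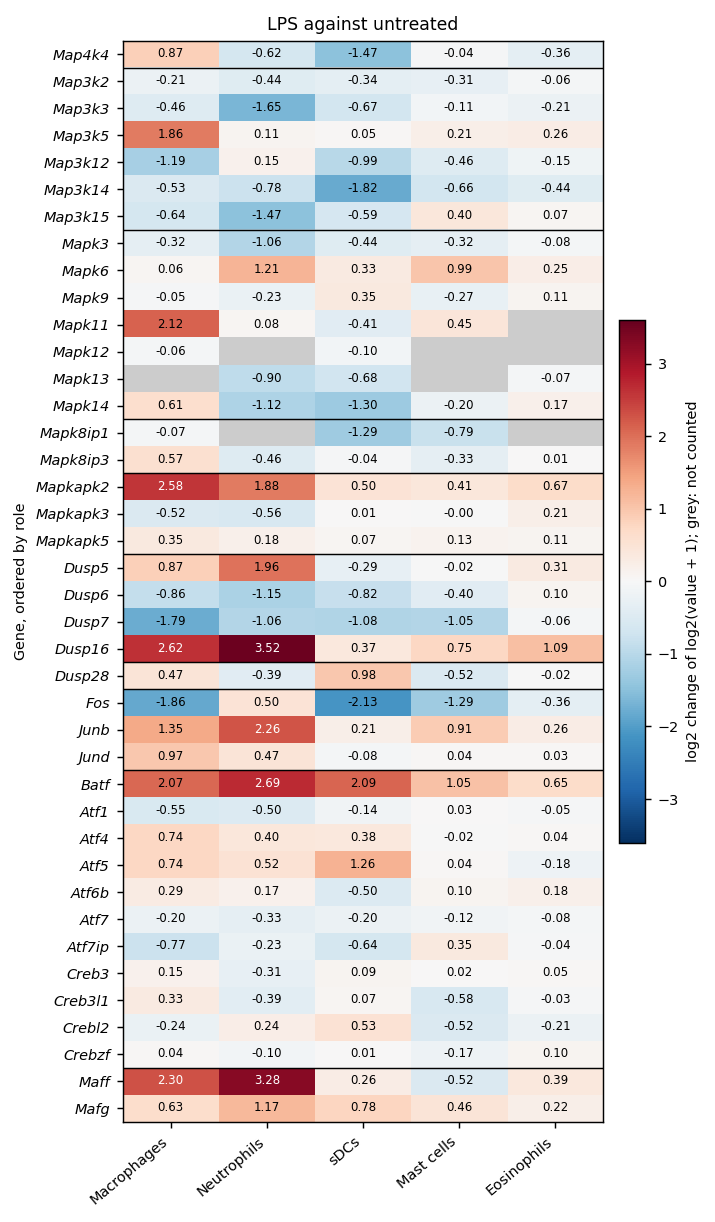
Log2 change of each of the 40 members with LPS in the 5 cell types, on log2(value + 1), with red for higher, blue for lower and grey where the gene did not reach the minimum. Batf is red in all 5 columns, Dusp7 is blue in all 5, and eosinophils show small values apart from Dusp16 at 1.09.

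The phosphatases moved in opposite directions from each other. Dusp16, which dephosphorylates JNK and p38, went from 309 to 1904.5 with LPS in macrophages, from 875.5 to 10032.5 in neutrophils and from 131.5 to 281 in eosinophils. These were log2 changes of 2.62, 3.52 and 1.09, and the neutrophil change was the largest of any member in any cell type. In eosinophils the transcript of the gene with the highest mean gave 0.99, short of 2-fold. Dusp16 went from 249 to 418.5 in mast cells (0.75) and from 2223.5 to 2882 in sDCs (0.37), short of 2-fold. The sDCs had the most Dusp16 at rest and the smallest change. Dusp7, an ERK phosphatase, went the other way, from 1373 to 395 in macrophages, 783 to 376 in neutrophils, 200.5 to 94.5 in sDCs and 661.5 to 319 in mast cells. The log2 changes were -1.79, -1.06, -1.08 and -1.05, and eosinophils differed little (327 and 313). Dusp7 was the single member called lower in 4 cell types, where 0.523% of the 5167 genes counted in all 5 were. With changes centred on the median of all genes, its values in sDCs (-0.94) and mast cells (-0.97) fell short of 2-fold. Dusp5 reached 2663.5 from 682 in neutrophils (1.96) and was 13300 and 10874 in sDCs. Dusp6 was 3747.5 untreated and 1686 with LPS in neutrophils (-1.15), and 1489.5 and 822 in macrophages (-0.86).

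Batf was called higher in more cell types than any other member. It encodes an AP-1 factor without a transactivation domain that pairs with Jun proteins. Its values untreated and with LPS were 294 and 1234 in macrophages, 313 and 2025.5 in neutrophils, and 131.5 and 564 in sDCs. In mast cells they were 1162 and 2404.5, and in eosinophils 505 and 793. The log2 changes in that order were 2.07, 2.69, 2.09, 1.05 and 0.65, and Batf was the single member called higher in 4 or more cell types, where 1.78% of genes were. At any size, 8 of the 36 members counted in all cell types were higher in all 5 (8.57% of genes) and 6 were lower in all 5 (18% of genes), and 0 were called in opposite directions in different cell types (2.5% of genes).

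The other AP-1 genes did not move alike. Junb, an AP-1 subunit, went from 2827.5 to 7215.5 in macrophages (1.35) and from 2278 to 10901.5 in neutrophils (2.26). It was 6878.5 and 7984 in sDCs, which had the most at rest. Fos went from 1817 to 501.5 in macrophages, from 556.5 to 126.5 in sDCs and from 1159 to 475 in mast cells, with log2 changes of -1.86, -2.13 and -1.29. In neutrophils Fos was 295.5 untreated and 419.5 with LPS. Maff, a small Maf that lacks a transactivation domain, went from 192.5 to 952 in macrophages (2.30) and from 164.5 to 1611.5 in neutrophils (3.28), while it was 203.5 and 142 in mast cells. Atf5 went from 1042.5 to 2500.5 in sDCs (1.26), where it and Batf were the members called higher. The neutrophil calls included Mafg (1.17) too.

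The kinases showed cell type differences of their own. Mapkapk2 was 4076 and 24395 in macrophages (2.58) and 7548 and 27752 in neutrophils (1.88). Per kb its LPS levels there, 9415 and 10711, were the highest of any member in any group. It went from 4311 to 6882.5 in eosinophils (0.67). Called higher in macrophages and in no other cell type, Mapk11 (p38 beta) went from 38.5 to 170.5 (2.12), and Map3k5 (ASK1, a stress-activated MAP3K) from 488 to 1776.5 (1.86). Map3k12, a kinase of the JNK branch, was 231.5 and 101 there (-1.19), but the transcript of the gene with the highest mean gave -0.44. In neutrophils the largest decreases were those of Map3k3 (2546.5 and 813, log2 -1.65) and Map3k15 (743 and 267.5, -1.47), and Mapk14 was 7678 and 3521.5 (-1.12) and Mapk3 7330.5 and 3519 (-1.06). Mapk6, an atypical ERK, went from 1973 to 4581 in neutrophils (1.21), but the transcript of the gene with the highest mean gave 0.99, short of 2-fold. Of the 3 members with the largest lead in sDCs at rest, Map3k14 was 12263 and 3478 there (-1.82) and Map4k4 47098.5 and 16997.5 (-1.47), both called lower, while Dusp5 was not called (-0.29). Of the dendritic cell list in the same groups, Dpp4 was 15226 and 3679, Itgax 4075.5 and 818.5, Clec9a 243.5 and 49.5, and Xcr1 189.5 and 201.5. Tcf7 was 15963 and 15383. Mapk14 was 3135.5 and 1277 in sDCs (-1.30), against 2720.5 and 4163 in macrophages (0.61).

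**Figure D3:**
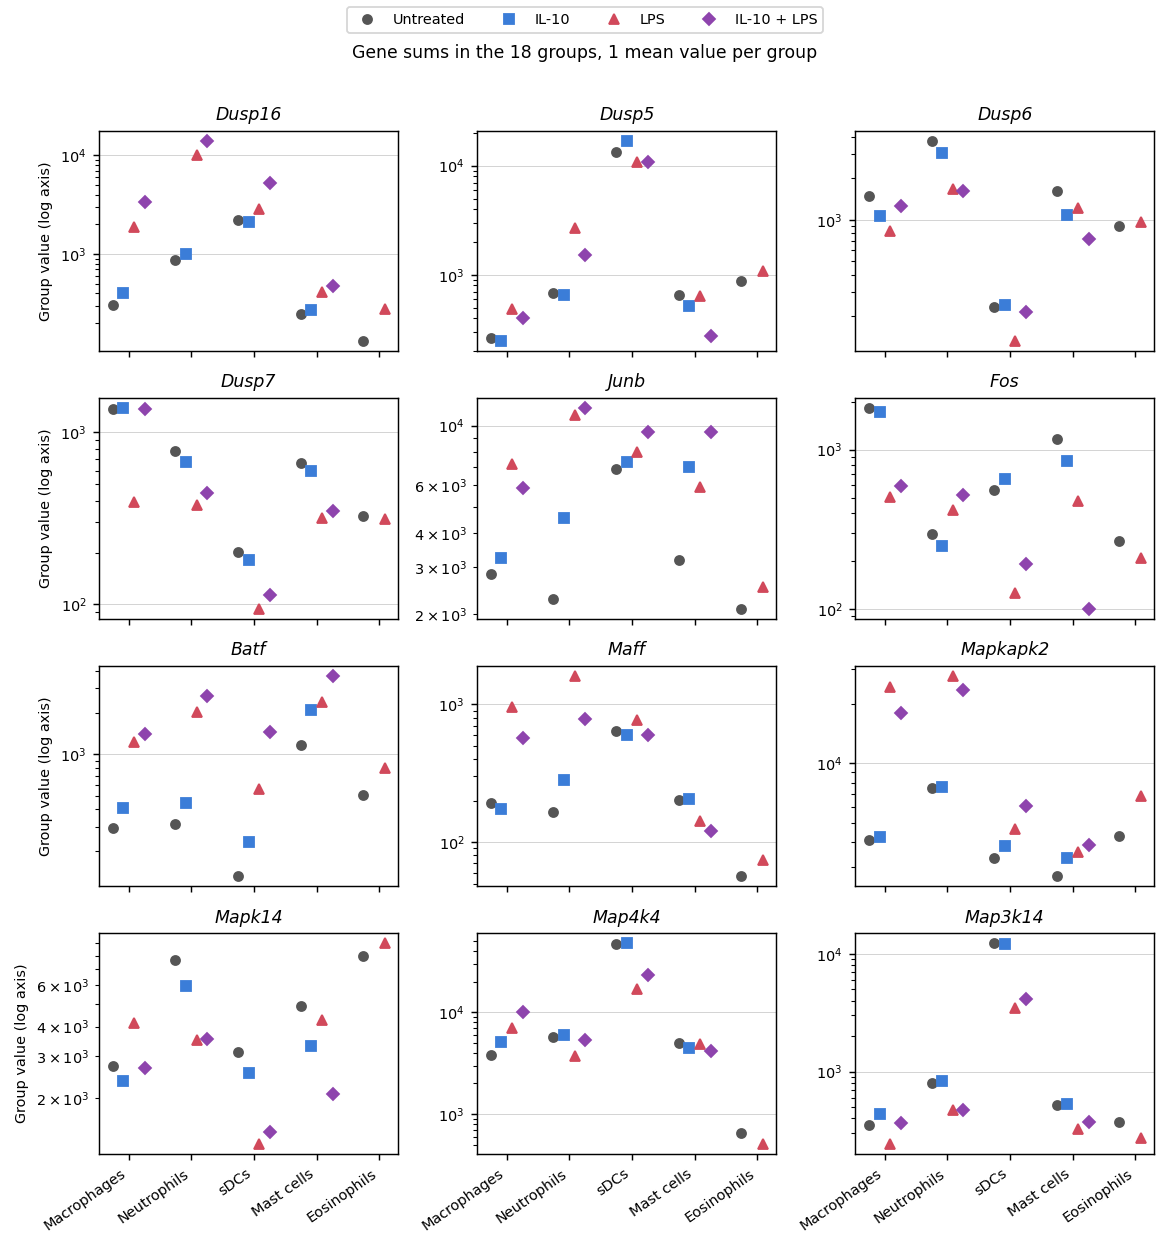
Values of 12 members in the 18 groups (log axes, each point the authors' mean of a group, no error bars possible). The LPS points of Dusp16, Maff and Mapkapk2 lie far above the untreated ones in macrophages and neutrophils, and those of Dusp7 lie below them in every cell type but eosinophils, where they nearly coincide.

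Whether a change was common to the cell types was asked with limma on log2(value + 1) over all genes, with the cell type as a block and the cell types as the units, so its error is the spread of the change between cell types. With LPS, 13 of 6506 genes passed an adjusted p of 0.05 as higher (0.2%) and 0 as lower (0.0%), and 0 of the 40 members did in either direction. At an unadjusted p under 0.05 there were 13 members (23.2% of all genes were). Batf had the smallest p among them, with a mean log2 change of 1.71 ± 0.30 (SE, 5 cell types, higher in 5 of 5, limma adjusted p = 0.0992). Dusp7 had -1.01 ± 0.24 (lower in 5 of 5, limma adjusted p = 0.128), and Dusp16 1.67 ± 0.48 (higher in 5 of 5, limma adjusted p = 0.148). Mapkapk2 (1.21 ± 0.35) and Junb (1.00 ± 0.31) were also higher in 5 of 5, with limma adjusted p of 0.148 and 0.152. When eosinophils were left out, Batf passed, at 1.97 with a limma adjusted p of 0.0491; over the cell types left out in turn its adjusted p ran from 0.0491 to 0.268.

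**Figure D4:**
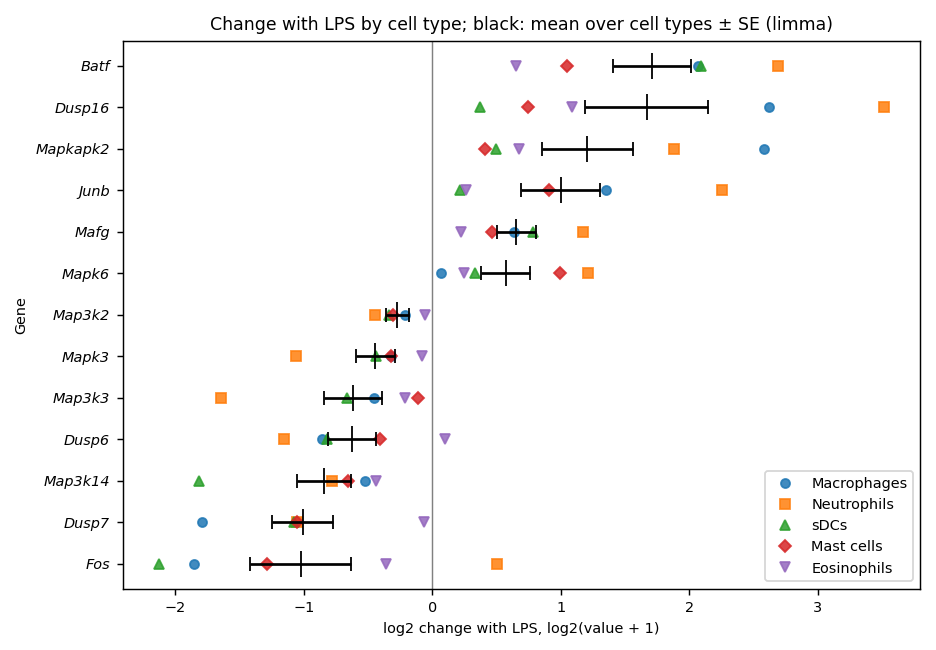
Log2 change with LPS of the 13 members with an unadjusted limma p under 0.05, by cell type (coloured points), with the mean over 5 cell types ± SE in black. Batf, Dusp16, Mapkapk2 and Junb lie to the right of 0 in all 5 cell types, and Dusp7 lies to the left.

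Promoter sequences from 250 bases before to 50 after the start site (RefSeq, GRCm38.p6, a later build than the mm9 transcripts counted) were found for 33 of the 40 members, which have 40 promoters. Matches on both strands were counted for the letters TGACGTCA (CRE, the Creb and Atf site), TGANTCA (AP-1), TTCNNNGAA (STAT), GGG and CC with any 5 bases between them (NF-kB) and the CArG box of serum response factor. The CRE was in 1 promoter (2.5%, against 1.79% of 32851 promoters), AP-1 in 0 (7.81%), NF-kB letters in 31 (77.5%, against 50.8%), the CArG box in 1 (2.5%, against 1.63%) and STAT letters in 2 (5.0%, against 8.3%). The difference in NF-kB letters was not tested. A match is a string of letters, not a site shown to be used.

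The promoters of 5 members that carry the contrasts above follow, with every match in capitals: the phosphatases Dusp16 (chr6:134792579-134792878, minus strand) and Dusp7 (chr9:106368382-106368681, plus strand), which changed in opposite directions, and Dusp5 (chr19:53528895-53529194, plus strand), Maff (chr15:79347270-79347569, plus strand) and Mapk11 (chr15:89149557-89149856, minus strand). Of the Maff start sites the one with the CRE was chosen.
Dusp16: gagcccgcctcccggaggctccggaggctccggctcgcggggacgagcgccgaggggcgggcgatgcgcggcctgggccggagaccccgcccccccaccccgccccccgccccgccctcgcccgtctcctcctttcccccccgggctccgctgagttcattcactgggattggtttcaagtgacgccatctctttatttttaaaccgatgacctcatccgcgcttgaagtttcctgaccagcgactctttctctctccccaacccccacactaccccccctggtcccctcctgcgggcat
Dusp7: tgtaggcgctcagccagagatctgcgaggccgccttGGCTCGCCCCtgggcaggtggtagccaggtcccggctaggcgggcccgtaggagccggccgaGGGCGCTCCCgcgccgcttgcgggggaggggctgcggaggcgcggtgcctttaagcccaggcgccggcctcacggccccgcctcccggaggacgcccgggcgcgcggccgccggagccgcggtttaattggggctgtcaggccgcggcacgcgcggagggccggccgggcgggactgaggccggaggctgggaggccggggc
Dusp5: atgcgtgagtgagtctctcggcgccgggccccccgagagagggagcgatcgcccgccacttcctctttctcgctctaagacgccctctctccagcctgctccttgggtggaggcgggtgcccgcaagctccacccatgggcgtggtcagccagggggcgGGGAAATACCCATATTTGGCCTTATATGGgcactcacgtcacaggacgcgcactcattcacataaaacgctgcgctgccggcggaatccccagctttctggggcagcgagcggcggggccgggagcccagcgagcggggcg
Maff: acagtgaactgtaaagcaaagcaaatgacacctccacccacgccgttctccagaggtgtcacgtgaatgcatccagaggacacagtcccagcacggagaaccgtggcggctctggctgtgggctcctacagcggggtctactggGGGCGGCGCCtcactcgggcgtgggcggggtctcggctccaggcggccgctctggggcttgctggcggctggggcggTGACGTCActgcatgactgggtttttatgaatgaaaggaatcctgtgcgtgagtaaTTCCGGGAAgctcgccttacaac
Mapk11: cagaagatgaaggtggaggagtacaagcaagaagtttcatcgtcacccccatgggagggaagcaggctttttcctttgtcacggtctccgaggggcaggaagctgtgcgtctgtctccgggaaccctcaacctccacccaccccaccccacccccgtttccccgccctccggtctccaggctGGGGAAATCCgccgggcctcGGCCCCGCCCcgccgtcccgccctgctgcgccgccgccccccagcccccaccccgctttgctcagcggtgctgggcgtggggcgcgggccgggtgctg
Dusp16, with the largest change, held no match in this window. In Dusp5 the capitals are the only CArG boxes of the members, CCATATTTGG and CCTTATATGG, next to each other and overlapping NF-kB letters. In Maff the last 2 runs are the CRE and a STAT match, and in Mapk11 the former run is GGGGAAATCC.

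Few members were called with IL-10 alone, and few of all genes were, so no difference from all genes is read from the counts. Compared with untreated cells, 0 of 39 members were called higher in macrophages (2.34% of all genes) and 0 lower (2.14%), and in neutrophils 0 of 38 higher (1.26%) and 0 lower (0.908%). In sDCs 1 of 40 was higher (1.6%) and 0 lower (0.826%), and in mast cells 2 of 38 were higher (2.25%) and 1 lower (2.79%). The largest values were in mast cells, where Junb was 3166.5 untreated and 7007 with IL-10 (log2 1.15) and the JNK scaffold Mapk8ip1 was 64 and 14.5 (-2.07). Mapk11 was 4.5 and 11 there (1.13), and Creb3l1 was 19.5 and 41 in sDCs (1.03), both low values. In neutrophils Junb was 2278 and 4548.5, which at 1.00 after rounding lay just short of 2-fold. In mast cells Creb3l1 was 6934.5 and 3543.5 (-0.97).

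No member passed the common fit with IL-10 alone (0 of 40 in limma, where 0 of 6470 genes did). Batf was higher in 4 of 4 cell types, with a mean log2 change of 0.66 ± 0.09 (SE, limma adjusted p = 0.225), and Mapk14 lower in 4 of 4, at -0.36 ± 0.07 (limma adjusted p = 0.256). At an unadjusted p under 0.05 there were 11 members (12.1% of all genes).

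IL-10 given before LPS was compared with LPS alone. This comparison shares its LPS groups with the LPS comparison, so a high LPS value raises one change and lowers the other. Macrophages had 1 of 39 members higher (3.12%) and 0 lower (4.58%), neutrophils 0 of 38 higher (3.06%) and 1 lower (3.87%), sDCs 3 of 40 higher (2.61%) and 0 lower (2.08%), and mast cells 1 of 38 higher (2.88%) and 4 lower (4.66%). In macrophages the gene was Dusp7, at 1373 untreated, 395 with LPS and 1373 with IL-10 and LPS, so its value with both agents equalled the untreated one (log2 1.79 over LPS). With both agents it was 442.5 in neutrophils (376 with LPS), 113.5 in sDCs (94.5) and 350 in mast cells (319). In neutrophils Maff was 1611.5 with LPS and 784.5 with both (-1.04), and it was lower in all 4 cell types, with 952 and 571.5 in macrophages. Between the same neutrophil groups Emr1 went from 14667.5 to 5157.5 and the summed neutrophil markers from 68132.5 to 106927. Of the other macrophage list genes, Marco went from 241 to 14.5 but Cd68 from 3140 to 4387.5. Within the neutrophil list Cxcr2 went from 3210 to 19833, Mpo from 20675 to 20878 and Ly6g from 158.5 to 70.5. In macrophages the macrophage markers went from 117385 to 95076, in sDCs the dendritic cell markers from 4748.5 to 4326.5 and in mast cells the mast cell markers from 380336.5 to 332140. Within the mast cell list Kit went from 130854 to 86014.5 and Tpsab1 from 7077.5 to 4147. Tpsb2, the largest of that list, went only from 187547 to 187513.5, and Slc18a2 from 54858 to 54465. The part of these shifts in the changes with IL-10 during LPS was not tested.

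Dusp16 was the reverse of Maff, higher with both agents than with LPS in all 4 cell types: 3375.5 against 1904.5 in macrophages, 14079 against 10032.5 in neutrophils, 5203.5 against 2882 in sDCs and 471.5 against 418.5 in mast cells. None of these reached 2-fold. In sDCs Batf was 564 with LPS and 1444 with both (1.35), Creb3l1 20.5 and 80 (1.91) and Mapk13 31.5 and 66 (1.04). Mapk13 fell short of 2-fold with a pseudocount of 10 (0.87) and, narrowly, with centring, which left 2 members called. In mast cells Fos was 475 and 100.5 (-2.23), Mapk8ip1 36.5 and 10.5 (-1.71), Dusp5 642 and 276 (-1.21), Mapk14 4248 and 2068.5 (-1.04) and Mapk11 6.5 and 20 (1.49). Fos was therefore lower in mast cells with both agents than in any other group of any cell type. The Mapk11 change was opposite (-0.36) for the transcript of the gene with the highest mean, so the 1 member counted as higher in mast cells rests on the sum of transcripts, at low values.

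**Figure D5:**
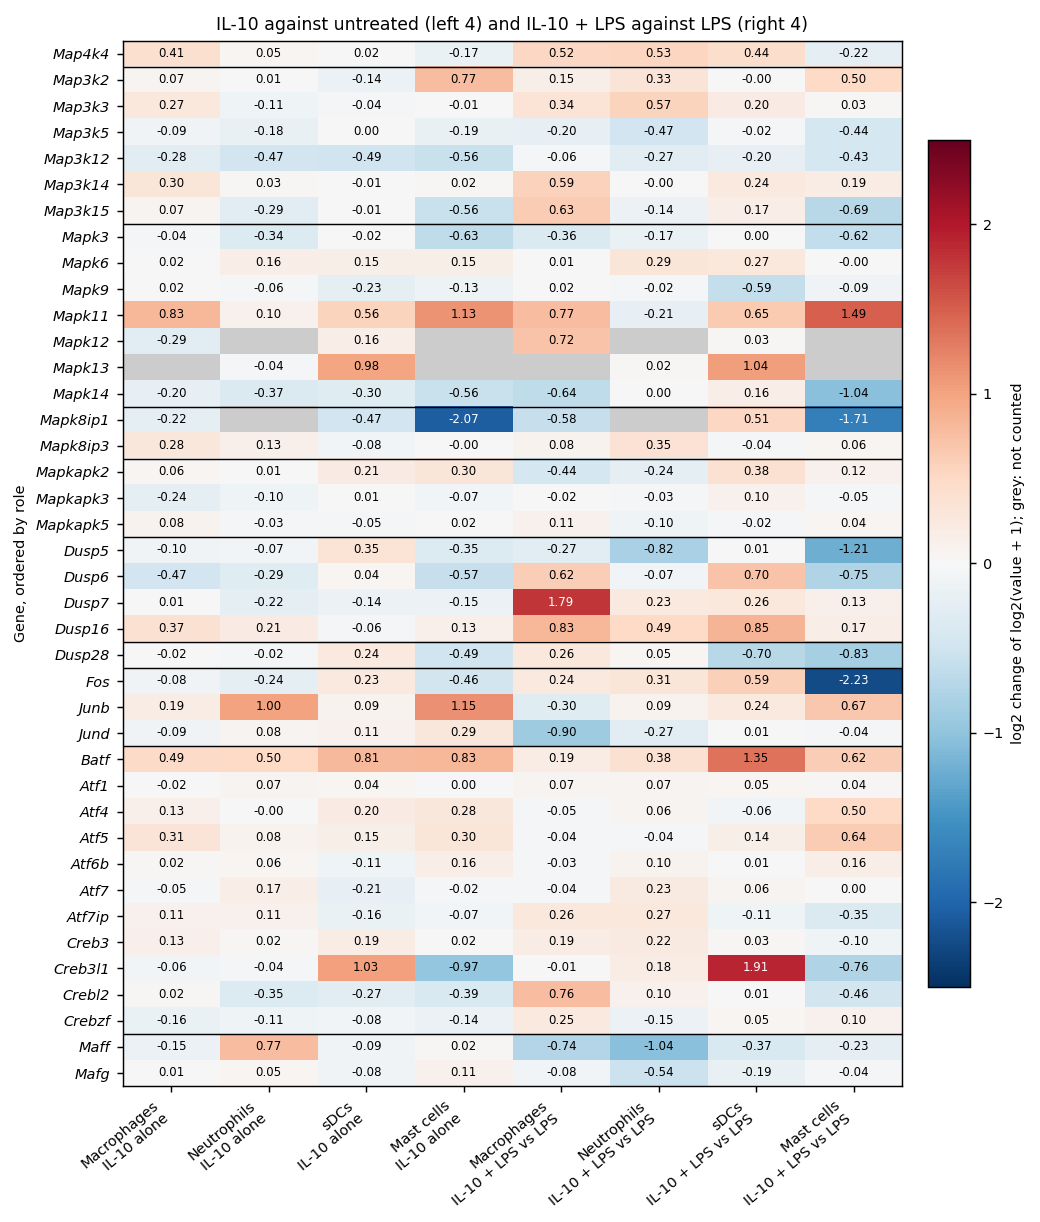
Log2 change of each member with IL-10 alone (left 4 columns) and with IL-10 and LPS against LPS (right 4 columns), on log2(value + 1), with grey where the gene did not reach the minimum. The darkest cells on the right are Fos in mast cells at -2.23, Creb3l1 in sDCs at 1.91 and Dusp7 in macrophages at 1.79.

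In the common fit over 4 cell types, 3 of 6479 genes passed as higher (0.0463%) and 1 as lower (0.0154%), and 0 members did (limma adjusted p of 0.05). Dusp16 had 0.58 ± 0.13 (SE, higher in 4 of 4, limma adjusted p = 0.206), Maff -0.59 ± 0.15 (lower in 4 of 4, limma adjusted p = 0.230) and Batf 0.63 ± 0.19 (higher in 4 of 4, limma adjusted p = 0.299). At an unadjusted p under 0.05 there were 8 members (13.2% of all genes).

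Of 75 other genes of the pathway in a list, from Ras to immediate early targets, 33 were held. With LPS 8 were called higher and 2 lower in macrophages (12.7% and 14.8% of all genes), 7 and 2 in neutrophils (8.71% and 7.88%), 7 and 1 in sDCs (9.04% and 11.5%), 5 and 2 in mast cells (4.76% and 5.46%) and 3 and 0 of 32 in eosinophils (2.16% and 0.702%). Nr4a3, an orphan nuclear receptor made early after stimulation, had a log2 change of 5.70 in neutrophils, 4.75 in macrophages, 3.74 in eosinophils, 3.06 in mast cells and -0.58 in sDCs. Ets2, a transcription factor phosphorylated by ERK, had 3.23, 3.09, 0.98, 1.16 and 0.61 in that order. Nr4a3 started under the minimum of 10 in eosinophils (6.5 untreated, 99.5 with LPS) and in mast cells (8.5 and 78). In sDCs it was 13405.5 untreated and 8993.5 with LPS, the highest of the untreated and of the LPS groups. With IL-10 during LPS the genes reported here that were called higher were Ksr1, a scaffold of the ERK cascade, in neutrophils (1.30), Cebpb in sDCs (1.36) and Myc in mast cells (2.12). Nr4a3 was called lower in macrophages (644.5 and 167.5), neutrophils (7076 and 1710) and mast cells (78 and 35). Nr4a1 was called lower in macrophages (-1.27) and neutrophils (-1.17), and Nr4a2 in macrophages (-1.47).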

How the data were processed

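RNA-seq covered 36 libraries, or 18 groups. A further sample, 1 of 37, had no matching column and is not used here. For each Ensembl v67 (mm9) transcript the authors obtained tag counts with RSEM 1.2.1 and Bowtie 0.12.9, corrected them for GC content with EDASeq, and deposited the mean of both replicates, a normalized score. Every column reaches the same top value, 185338. The copy used held 17015 complete lines and 1 broken line; 22 lines (0.129%) without a gene name were left out.

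Transcripts were summed by gene. No test within a cell type was possible on 1 mean per group, so the planned count test was not run and calls are by size, on a pseudocount of 1. limma 3.58.1 (R 4.3.3, trended eBayes, two-sided, Benjamini-Hochberg over all genes) was fitted across cell types. It was first run on simulated data, where the condition was that added changes of known size came back in its estimates. That condition does not bear on how often the fit finds a real change. Lengths came from GENCODE vM1. Python 3.11.15, numpy 2.4.6, pandas 2.3.3 and matplotlib 3.10.9 were used.

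The members and lists were chosen with earlier results of these data known. Named genes are the largest changes by cell type, members called in most cell types, and the highest resting member of each role; Junb with IL-10 in neutrophils, Dusp6, Dusp16 and Creb3l1 values short of the call, the 5 promoters and the pathway genes were picked after their values were seen. The IL-10 results of 1 gene on the pathway list are not reported here.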

Additional observations from a re-analysis of the deposited data

How the results depend on the processing

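The values are means of 2 libraries without their spread, so no within-cell-type difference has an error, and the normalization leaves no counts from which depth could be judged. No paired analysis was possible because the table holds 1 mean per group and its columns carry no replicate numbers, and leaving out each replicate was not run for the same reason. Alternatives were a pseudocount of 10, a minimum of 50 or none, the transcript with the highest mean, centring on the median of all genes, no cell type block, and each cell type left out.

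The transcript with the highest mean gave 2 members higher with LPS in mast cells and 0 in eosinophils, 1 higher with IL-10 in macrophages and 2 in sDCs, and, for IL-10 during LPS, 3 higher and 1 lower in macrophages and 0 higher in mast cells. It reversed Mapk11 with IL-10 during LPS in mast cells (-0.36). That transcript also gave 8 higher in macrophages and 8 lower in sDCs with LPS, and 4 higher in sDCs for IL-10 during LPS. Centring gave 2 higher and 1 lower with LPS in mast cells and 1 higher with IL-10 in neutrophils. With LPS it also gave 10 higher in macrophages, and 3 higher and 5 lower in sDCs. For IL-10 during LPS it gave 2 higher in sDCs. A pseudocount of 10 gave 0 higher with IL-10 in sDCs and 1 in mast cells. For IL-10 during LPS it gave 0 higher in mast cells and 2 in sDCs. A minimum of 50 gave 1 higher with IL-10 in mast cells and 0 for IL-10 during LPS there. No minimum gave 1 lower with LPS in eosinophils and 1 higher with IL-10 in macrophages. With LPS it also gave 8 higher in macrophages and 7 lower in neutrophils. In mast cells it gave 3 higher with IL-10 and 5 lower for IL-10 during LPS. Members with a common LPS increase ranged from 0 to 1 over the cell types left out; the 1 was Batf without eosinophils. The cause of these differences was not tested. Of 581 values of single members under the alternatives, 569 kept their direction and side of the threshold and 12 did not. The 569 include all 80 values with a minimum of 50, 82 with none and 32 with no cell type block. Those settings leave a counted log2 change, or a mean over cell types, as it was. The 569 therefore overstates how far the values were put to the test.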
